A study of Homo sapiens with 23 samples.

Results

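The genes described here are 10 regulators of the cell cycle, most of them of its G1 phase. They include the D-type cyclins *CCND1*, *CCND2* and *CCND3* and the E-type cyclins *CCNE1* and *CCNE2*. The others are the kinases *CDK2*, *CDK4* and *CDK6*, the kinase inhibitor *CDKN1B* and the kinase *WEE1*. All 10 were listed by symbol, by a rule that uses no measured value, although earlier results of these data were known when the list was made. Each was found by Ensembl identifier among the 57875 genes listed in every sample. After a filter on low counts 22842 genes were tested, and 9 of the 10 were among them. *CCND2* did not pass the filter.

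RNAseq was performed on HCT116 cells, a human colorectal carcinoma line, and on 4 derived lines lacking Argonaute (AGO) proteins, the proteins that carry microRNAs (miRNAs). The groups are wild-type HCT116 (WT), *AGO1* knockout, *AGO2* knockout, *AGO1/2* knockout and *AGO1/2/3* knockout, with 3 biological replicates per group and 15 samples in all. The labels name no added agent, and *AGO4* was not targeted in any group. The comparisons ask how steady-state RNA changes as AGO variants are removed. Each knockout genotype was made by CRISPR editing and is represented by a single line, so that genotype and line cannot be told apart. The p-values rest on the spread between cultures within lines, estimated over all lines together, and not on a spread between lines of the same genotype.

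D-type cyclins bind CDK4 or CDK6, and the complexes phosphorylate the retinoblastoma protein, which frees E2F transcription factors to drive entry into S phase. Cyclin E with CDK2 acts later in G1 on the same protein. The product of *CDKN1B*, known as p27, binds and restrains these complexes, and WEE1 adds an inhibitory phosphate to CDK2 and CDK1. Several of these mRNAs are textbook targets of the miR-15/16, miR-34 and miR-221/miR-222 families, which pair with 3′-UTRs mainly through bases 2 to 8 of the miRNA, the seed.

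The mature miRNAs whose seeds were searched in the 3′-UTRs of these genes are shown so that the sites can be read against them, with the seed in capitals (RefSeq, GRCh38.p14, 5′ to 3′). The miR-15 and miR-16 sequences share a seed, and so do miR-221 and miR-222. The levels of these miRNAs were not analysed here.
hsa-miR-16-5p: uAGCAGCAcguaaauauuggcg
hsa-miR-15a-5p: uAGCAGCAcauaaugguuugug
hsa-miR-34a-5p: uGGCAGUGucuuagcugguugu
hsa-miR-221-3p: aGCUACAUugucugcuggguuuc
hsa-miR-222-3p: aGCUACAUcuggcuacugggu

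Matches to the seed were counted as 7-base complements on the mRNA strand of the longest annotated 3′-UTR of each gene (GENCODE v44, hg38). The letters searched were TGCTGCT for miR-15/16, CACTGCC for miR-34, ATGTAGC for miR-221/miR-222, CTACCTC for let-7, GCACTTT for the miR-17 family and TGGTGCT for miR-29. At least 1 match was present in 22.9%, 16.7%, 8.7%, 10.6%, 22.7% and 15.0% of 19245 protein-coding 3′-UTRs, in that order. The sites below are a selection by hand from genes whose RNA changed, with those of *CCNE1*, whose RNA was not called changed. The genes whose RNA changed hold further matches that are not printed. Each shows 30 bases of the mRNA strand with the match in capitals.
*CCND1*, miR-15/16, chr11:69653293-69653322, plus strand: tgtgtatctctttcacattgttTGCTGCTa
*CDK6*, miR-34, chr7:92614045-92614074, minus strand: ttacactgtactttctgccacaCACTGCCt
*CDK6*, miR-221/miR-222, chr7:92608320-92608349, minus strand: aggtatgtaaacaaattatctcATGTAGCa
*CDKN1B*, miR-221/miR-222, chr12:12721206-12721235, plus strand: gatctgcctctaaaagcgttggATGTAGCa
*CDKN1B*, miR-221/miR-222, chr12:12721279-12721308, plus strand: gtgtatatagtttttaccttttATGTAGCa
*WEE1*, miR-15/16, chr11:9589124-9589153, plus strand: tggaggtattgccttgtgaattTGCTGCTa
*CCNE1*, miR-15/16, chr19:29824002-29824031, plus strand: agacaccagtgcgtgctcccgaTGCTGCTa
*CCNE1*, miR-15/16, chr19:29824240-29824269, plus strand: ctttgatgaactgttttgtaagTGCTGCTa

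All 10 genes held at least 1 match to the 6 families, and none held a let-7 match. *CDK6* has the longest 3′-UTR of the set, 10219 bases, with 8 matches to 5 families. A 3′-UTR of that length often holds such matches: 70.2% of the 309 3′-UTRs of similar length (the shorter at least 0.8 of the longer) have a miR-15/16 match and 54.4% a miR-34 match. *CDKN1B* carried 2 miR-221/miR-222 matches in 3266 bases, where 16.4% of 3′-UTRs of similar length have at least 1. The shorter 3′-UTR of its representative transcript, 1342 bases, holds both. Among 3′-UTRs of a length similar to the 1383 bases of *WEE1*, 6.5% have at least 1. *CCNE1* carried 2 miR-15/16 matches in only 535 bases, where 10.4% have at least 1, and *WEE1* carried 2 in 1383 bases, where 21.8% do. *CCND2* had 5 matches, *CCND1* 2, and *CCND3*, *CCNE2*, *CDK2* and *CDK4* 1 each. A match is a description of the letters and does not show that a site is used.

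**Figure D1:**
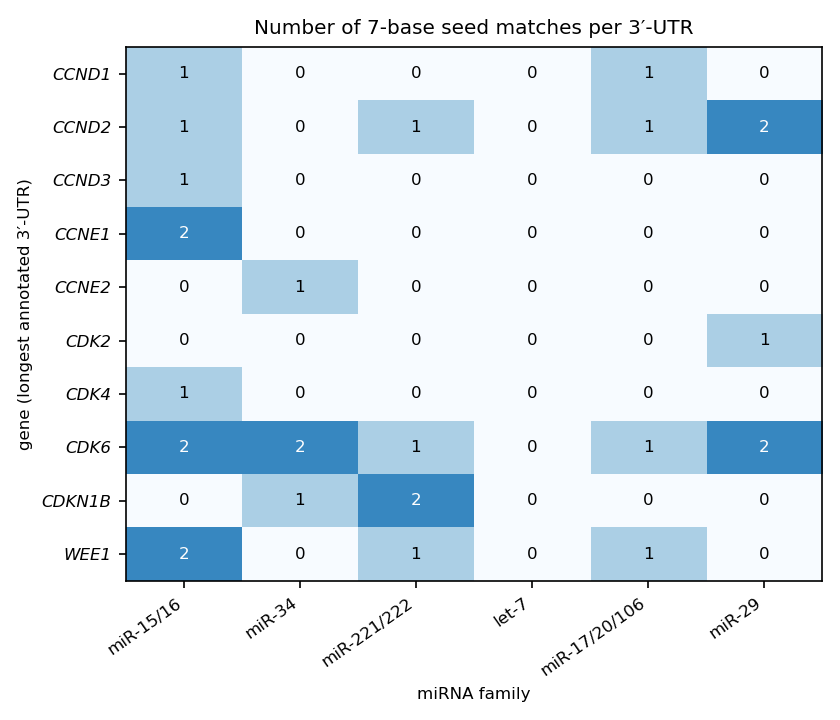
Number of 7-base seed matches in the longest annotated 3′-UTR, with genes as lines of the grid and 6 miRNA families as columns. *CDK6* has matches to 5 families and 8 matches in all, and the let-7 column is 0 throughout.

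Total counts per sample ranged from 27709971 to 45271146. Levels are given as counts per 1000000 counts of the sample (CPM), with library sizes scaled by the TMM method of edgeR. The 8 markers of colorectal epithelium examined summed to between 1335 and 2644 CPM in each sample, although *VIL1* and *CDX1* were under 1 CPM in every line. Summed markers of fibroblasts, leukocytes and endothelium were at most 30.4, 1.96 and 3.2 CPM. RNA of the targeted genes was lower but not absent where that was seen: *AGO1* fell from 108 to 146 CPM in WT to between 28.7 and 39.5 CPM in the 3 lines lacking AGO1, and *AGO3* fell from 100 to 130.4 CPM to between 46.1 and 57.4 CPM in *AGO1/2/3* knockout cells. *AGO2* RNA was 262 to 314 CPM in *AGO2* knockout cells against 379 to 459 CPM in WT, 321 to 365 CPM in *AGO1/2* knockout cells and 518 to 558 CPM in *AGO1/2/3* knockout cells, so that the RNA level of *AGO2* does not check that label. RNA of *AGO4*, which was not targeted, was 55.9 to 69.4 CPM in *AGO1/2/3* knockout cells against 21.9 to 28.5 CPM in WT (log2 fold change 1.29, SE 0.23, adjusted p = 0.000346 by edgeR). In *AGO2* knockout cells it was 10.8 to 20.3 CPM (-0.7, SE 0.23, adjusted p = 0.0458 by edgeR). WT replicate 2 stood apart: its root mean square deviation from its group mean over 16083 genes was 0.34 on the log2 scale, against 0.14 to 0.27 in the other samples. The file headers of the *AGO2* knockout samples name another quantification mode, which cannot be told apart from the genotype. All knockout lines were compared with the same 3 WT samples.

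Loss of AGO1, AGO2 and AGO3 together was accompanied by higher RNA of *CDK6*, *CCND1*, *WEE1*, *CDKN1B*, *CCNE2* and *CDK2*. *CDK6* and *CCND1* rose by 5.59-fold and 4.88-fold, *WEE1* and *CDKN1B* by 2.30-fold and 2.22-fold, and *CCNE2* and *CDK2* by 1.89-fold and 1.63-fold. These are 6 of the 9 genes tested, and among all genes tested 20.3% were called higher and 40.1% were called in either direction in that comparison. The median log2 fold change was 0.92 over the 9 genes and -0.01 over all genes tested, and the median of the 9 was 0.53 without WT replicate 2. Genes were called at an adjusted p of at most 0.05 by the quasi-likelihood test of edgeR, with p-values adjusted by the Benjamini-Hochberg method over all genes tested, in 1 fit of all 15 samples.

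**Figure D2:**
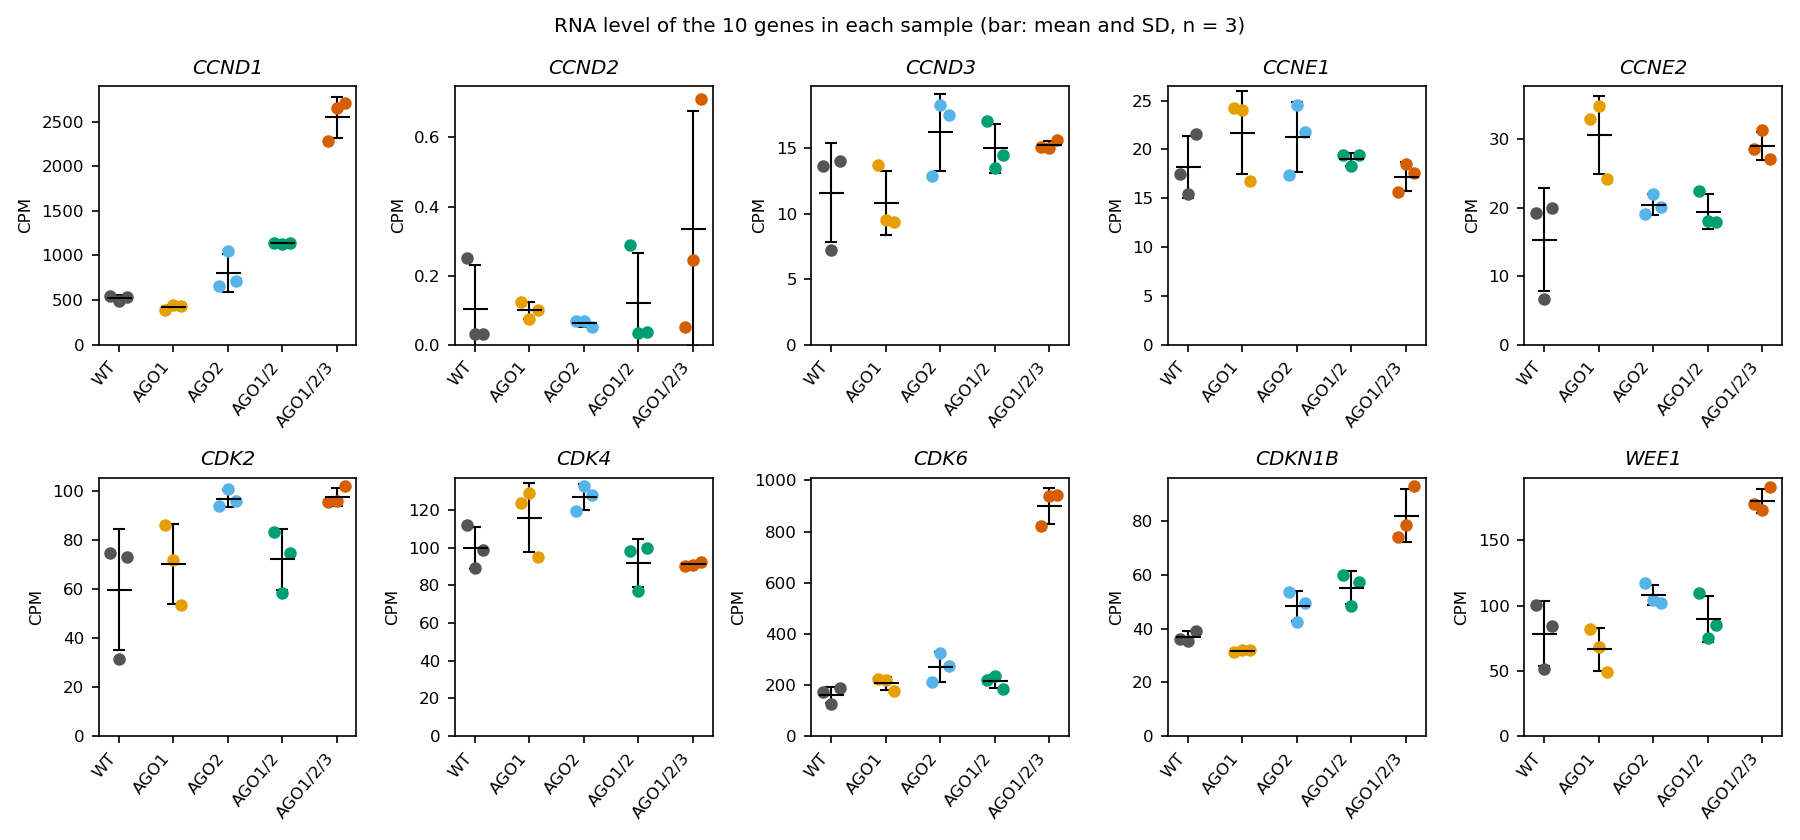
RNA level in CPM (linear axis from 0) of each of the 10 genes in each sample, by line, with the mean and SD of 3 replicates as bars. In *AGO1/2/3* knockout cells *CCND1* (2287 to 2713 CPM) and *CDK6* (820.2 to 941 CPM) lay above every other sample, and *CCND2* was under 1 CPM throughout.

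*CCND1* (ENSG00000110092, hg38 chromosome 11, 69641156 to 69654474) encodes cyclin D1. Its level in the 3 WT replicates was 549.8, 486 and 532 CPM, and in *AGO1/2/3* knockout cells it was 2287, 2650.2 and 2713 CPM. The groups did not overlap, and the log2 fold change was 2.29 (SE 0.15, adjusted p = 2.17e-08 by edgeR). In *AGO1/2* knockout cells *CCND1* was at 1141, 1133 and 1145 CPM, between WT and *AGO1/2/3* knockout cells and without overlap with either. Its log2 fold change against WT was 1.12 (SE 0.15, adjusted p = 9.13e-05 by edgeR), and the *AGO1/2/3* knockout line was a further 1.16 above the *AGO1/2* knockout line on the log2 scale (SE 0.15, adjusted p = 3.93e-05). In *AGO2* knockout cells *CCND1* was at 652, 1049.8 and 709 CPM, all above WT, with a log2 fold change of 0.62 (SE 0.14, adjusted p = 0.0106 by edgeR). Replicate 2 of that line was the highest of the 3, and without it the change was 0.36 with an adjusted p of 0.0645.

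In *AGO1* knockout cells *CCND1* was at 394, 442 and 434 CPM, below all WT replicates, but the difference did not pass the test (log2 fold change -0.30, 95% interval -0.61 to 0.00, adjusted p = 0.224 by edgeR). The order of the lines for *CCND1* was therefore *AGO1/2/3*, *AGO1/2* and *AGO2* knockout, then WT and *AGO1* knockout, and every neighbouring pair differed except WT and *AGO1* knockout. The effect of losing AGO2 on *CCND1* was larger where AGO1 was absent than where it was present, by 0.81 on the log2 scale (SE 0.20, adjusted p = 0.0122 by edgeR for the interaction). Among the 9 genes tested 2 were called in that interaction, against 19.7% of all genes.

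*CDK6* (ENSG00000105810, chromosome 7, 92604921 to 92836573) encodes a kinase partner of the D-type cyclins. Its level was 173, 124 and 187 CPM in WT, 224, 219 and 178 CPM in *AGO1* knockout, 211, 327 and 273 CPM in *AGO2* knockout and 220.2, 235 and 186 CPM in *AGO1/2* knockout cells. In *AGO1/2/3* knockout cells it was 820.2, 938 and 941 CPM, above every other sample. The *AGO1/2/3* knockout line differed from WT by 2.48 on the log2 scale (SE 0.18, adjusted p = 5.9e-08 by edgeR) and from the *AGO1/2* knockout line by 2.07 (SE 0.18, adjusted p = 1.13e-06), a 4.21-fold step. In contrast to *CCND1*, *CDK6* in *AGO1/2* knockout cells was not called different from WT (0.41, 95% interval 0.05 to 0.77, adjusted p = 0.121). It was called higher in *AGO2* knockout cells (0.75, SE 0.17, adjusted p = 0.0100 by edgeR), and without *AGO2* knockout replicate 2 that change was 0.57 with an adjusted p of 0.0707. Below the *AGO1/2/3* knockout line, no neighbouring pair in the order of the lines was called different.

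*CDK4* (ENSG00000135446, chromosome 12, 57747727 to 57756013), the other kinase partner of D-type cyclins, did not follow *CDK6*. It was at 112, 89.1 and 98.9 CPM in WT and at 90.4, 90.9 and 92.3 CPM in *AGO1/2/3* knockout cells, values that overlapped. The difference was -0.13 (95% interval -0.40 to 0.14, adjusted p = 0.453 by edgeR), an interval that lies wholly below that of *CDK6* (2.10 to 2.86). The highest levels of *CDK4* were in *AGO2* knockout cells (119.6, 133 and 128 CPM). Against that line the log2 differences were negative in the *AGO1/2* knockout and the *AGO1/2/3* knockout, -0.47 and -0.48 (SE 0.13 for each, adjusted p = 0.0160 and 0.00771 by edgeR). The interaction of AGO1 and AGO2 loss was negative for *CDK4*, -0.68 (SE 0.18, adjusted p = 0.0162 by edgeR), opposite in sign to that of *CCND1*.

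The ratio of *CDK6* to *CDK4* counts within a sample does not depend on library size. It was 1.55, 1.39 and 1.89 in WT and 9.07, 10.3 and 10.2 in *AGO1/2/3* knockout cells. The mean log2 ratio differed by 2.63, and all 3 knockout values lay above all WT values (exact two-sided permutation test, p = 0.1, the smallest that 3 samples against 3 can give). In the other 3 knockout lines the ratio was between 1.7 and 3.06 and overlapped with WT. Per kilobase of annotated exon, *CDK6* made up 28.8% ± 3.22 (SD, n = 3) of the RNA of the pair in WT and 71.3% ± 1.47 (SD, n = 3) in *AGO1/2/3* knockout cells. With the length of the longest transcript instead, the shares were 20.4% and 61.2%. Under both lengths *CDK4* RNA was the more abundant of the pair in WT and *CDK6* RNA in *AGO1/2/3* knockout cells. Both lengths of *CDK6*, 12239 and 11663 bases, include its 3′-UTR of 10219 bases. Whether the cells use all of that 3′-UTR was not examined, and the order in WT depends on it.

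**Figure D3:**
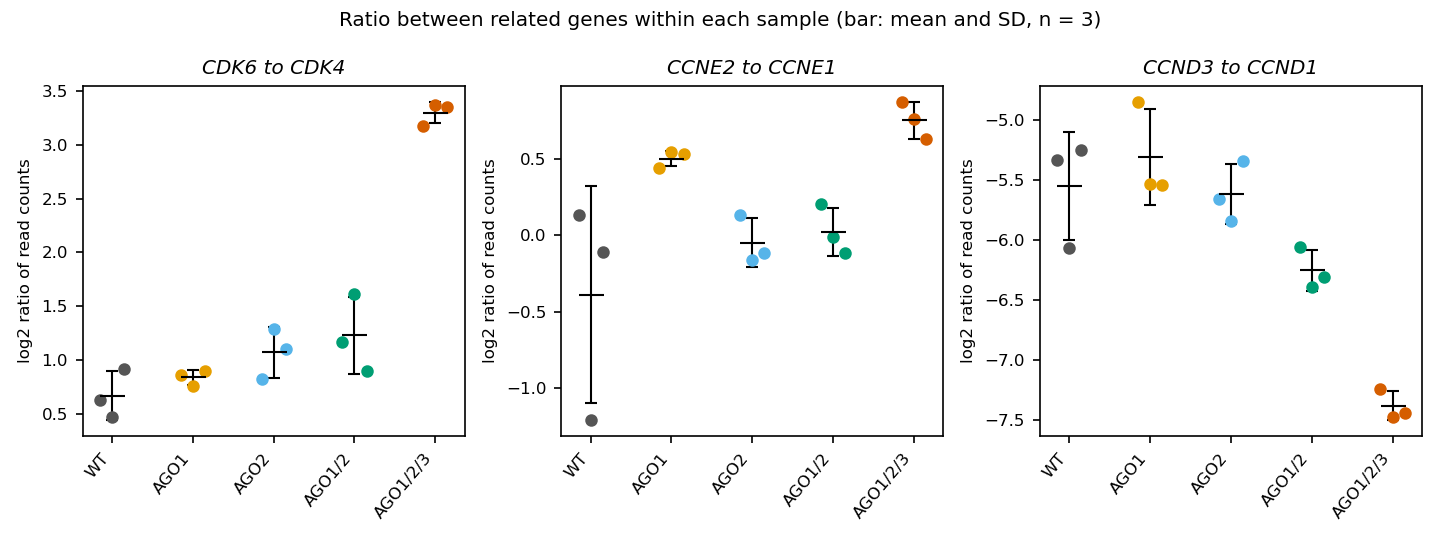
Log2 ratio of read counts between related genes within each sample, by line, with the mean and SD of 3 replicates as bars; the axes do not start at 0. The *CDK6* to *CDK4* ratio lay between 3.18 and 3.37 in *AGO1/2/3* knockout cells and between 0.47 and 0.92 in WT, and WT replicate 2 (-1.21) stood apart for *CCNE2* to *CCNE1*.

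The other D-type cyclins contributed little RNA. *CCND2* (ENSG00000118971, chromosome 12, 4269771 to 4305353) had 8, 1 and 1 counts in the WT samples and 2, 7 and 21 in the *AGO1/2/3* knockout samples. In the remaining lines it had 1 to 9 counts per sample, so that a difference was not detectable at this depth. *CCND3* (ENSG00000112576, chromosome 6, 41934934 to 42050357) was at 13.6, 7.24 and 14 CPM in WT and 15.1, 15.0 and 15.6 CPM in *AGO1/2/3* knockout cells, a log2 difference of 0.39 (95% interval -0.07 to 0.85, adjusted p = 0.172 by edgeR). It was not called in any comparison of lines. Per kilobase, *CCND1* made up 97.2% to 99.5% of D-type cyclin RNA over the 15 samples. The log2 ratio of *CCND3* to *CCND1* was lower in *AGO1/2/3* knockout cells than in WT by a difference of -1.83, without overlap of the replicates (exact permutation test, p = 0.1).

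The E-type cyclins differed from each other. *CCNE1* (ENSG00000105173, chromosome 19, 29811991 to 29824312) was at 17.5, 15.4 and 21.6 CPM in WT and 15.6, 18.5 and 17.6 CPM in *AGO1/2/3* knockout cells. It was not called in any pair of lines nor in the test of any difference among the lines (adjusted p = 0.277 by edgeR), and its difference in *AGO1/2/3* knockout cells was -0.08 with a 95% interval of -0.42 to 0.27. Its RNA thus showed no called change although its 3′-UTR holds both miR-15/16 matches printed above.

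*CCNE2* (ENSG00000175305, on the long arm of chromosome 8) was at 19.2, 6.66 and 20 CPM in WT. It was at 32.9, 34.8 and 24.2 CPM in *AGO1* knockout cells and 28.5, 31.3 and 27.1 CPM in *AGO1/2/3* knockout cells, in both cases above all WT replicates. The log2 fold changes were 1.0 (SE 0.28, adjusted p = 0.0359 by edgeR) and 0.92 (SE 0.28, adjusted p = 0.0150). In the *AGO2* and *AGO1/2* knockout lines *CCNE2* was at 19.0 to 22 and 17.9 to 22.4 CPM, overlapping with WT. WT replicate 2 was low, and without it the changes were 0.65 in *AGO1* knockout and 0.53 in *AGO1/2/3* knockout cells, with adjusted p of 0.0164 and 0.0108. *CCNE2* was the single gene of the set called in *AGO1* knockout cells, 1 of 9, where 3.17% of all genes tested were called higher and 8.68% in either direction. The ratio of *CCNE2* to *CCNE1* counts was 1.09, 0.434 and 0.929 in WT, 1.35, 1.45 and 1.44 in *AGO1* knockout cells and 1.83, 1.69 and 1.55 in *AGO1/2/3* knockout cells. Both knockout lines lay above all WT values (exact permutation test, p = 0.1 for each), with mean log2 differences of 0.89 and 1.15. Both calls of *CCNE2* were lost when the 6 samples compared were fitted alone (edgeR adjusted p = 0.211 in *AGO1* and 0.0813 in *AGO1/2/3* knockout cells) and without *AGO1/2/3* knockout replicate 2 (0.0501 and 0.0526).

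The rise of *CCNE2* in *AGO1/2/3* knockout cells was against the direction of its chromosome arm. The median log2 fold change of the 519 genes tested on 8q was -0.46 both in *AGO1/2* and in *AGO1/2/3* knockout cells, and 42.0% and 44.7% of them were called lower. Of the 70 genes tested within 5 Mb of *CCNE2*, 35 were called lower and 3 higher in *AGO1/2/3* knockout cells. In *AGO1* and *AGO2* knockout cells the medians of the arm were 0.02 and -0.03. A difference in DNA copy of the arm between lines was not tested.

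*CDK2* (ENSG00000123374, chromosome 12, 55966781 to 55972789), the partner of the E-type cyclins, was at 74.9, 31.5 and 73.0 CPM in WT and 95.5, 95.8 and 102 CPM in *AGO1/2/3* knockout cells. The groups did not overlap, and the log2 fold change of 0.71 (SE 0.25) passed the test narrowly (adjusted p = 0.0328 by edgeR). WT replicate 2 was again the low sample, and without it the change was 0.38 and not called (adjusted p = 0.0996). In *AGO2* knockout cells *CDK2* was at 94.0, 101 and 96.1 CPM, a similar level, and the log2 difference of 0.70 (SE 0.25) had an adjusted p of 0.0602. *CDK2* was also not called in the test of any difference among the lines (adjusted p = 0.0738 by edgeR), in which 6 of the 9 genes were called against 56.4% of all genes.

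*CDKN1B* (ENSG00000111276, chromosome 12, 12685498 to 12722369) encodes an inhibitor of these kinases, and its RNA rose in the same lines as that of *CCND1*. It was at 36.2, 35.3 and 39.1 CPM in WT, 53.5, 42.4 and 49.5 CPM in *AGO2* knockout, 59.9, 48.4 and 57.4 CPM in *AGO1/2* knockout and 74.2, 78.7 and 93.1 CPM in *AGO1/2/3* knockout cells. Each of these 3 knockout lines lay wholly above WT. The log2 fold changes were 0.39 (SE 0.11, adjusted p = 0.0280 by edgeR), 0.58 (SE 0.11, adjusted p = 0.0025) and 1.15 (SE 0.12, adjusted p = 1.49e-06). *AGO1/2/3* knockout cells also exceeded *AGO1/2* knockout cells, by 0.57 (SE 0.11, adjusted p = 0.00203 by edgeR), whereas *AGO2* and *AGO1/2* knockout cells did not differ beyond their spread (0.19, 95% interval -0.05 to 0.43). In *AGO1* knockout cells the values of 31.3, 32.2 and 32.0 CPM were below WT and not called (-0.21, adjusted p = 0.301). The call in *AGO2* knockout cells was lost without WT replicate 2 (0.34, edgeR adjusted p = 0.128). In all it was lost under 7 of 22 alternative runs, among them those without WT replicate 1 and without *AGO2* knockout replicate 1 or 3.

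*WEE1* (ENSG00000166483, chromosome 11, 9573670 to 9593457), which encodes the kinase that restrains CDK1 and CDK2, rose only with the loss of all 3 AGO proteins among the comparisons with WT. It was at 100.1, 51.5 and 84.0 CPM in WT and 178, 173 and 191 CPM in *AGO1/2/3* knockout cells, without overlap. The log2 fold change was 1.2 (SE 0.22, adjusted p = 0.000399 by edgeR), and it was 0.94 without WT replicate 2 (adjusted p = 0.00139). Against *AGO1/2* knockout cells, which were at 109.6, 75.2 and 84.9 CPM, the change was 1.0 (SE 0.22, adjusted p = 0.00344). In *AGO2* knockout cells *WEE1* was at 117, 104 and 102 CPM, with a log2 difference of 0.46 that was not called (adjusted p = 0.140), and in *AGO1* knockout cells it was at 82.1, 68.3 and 48.9 CPM.

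**Figure D4:**
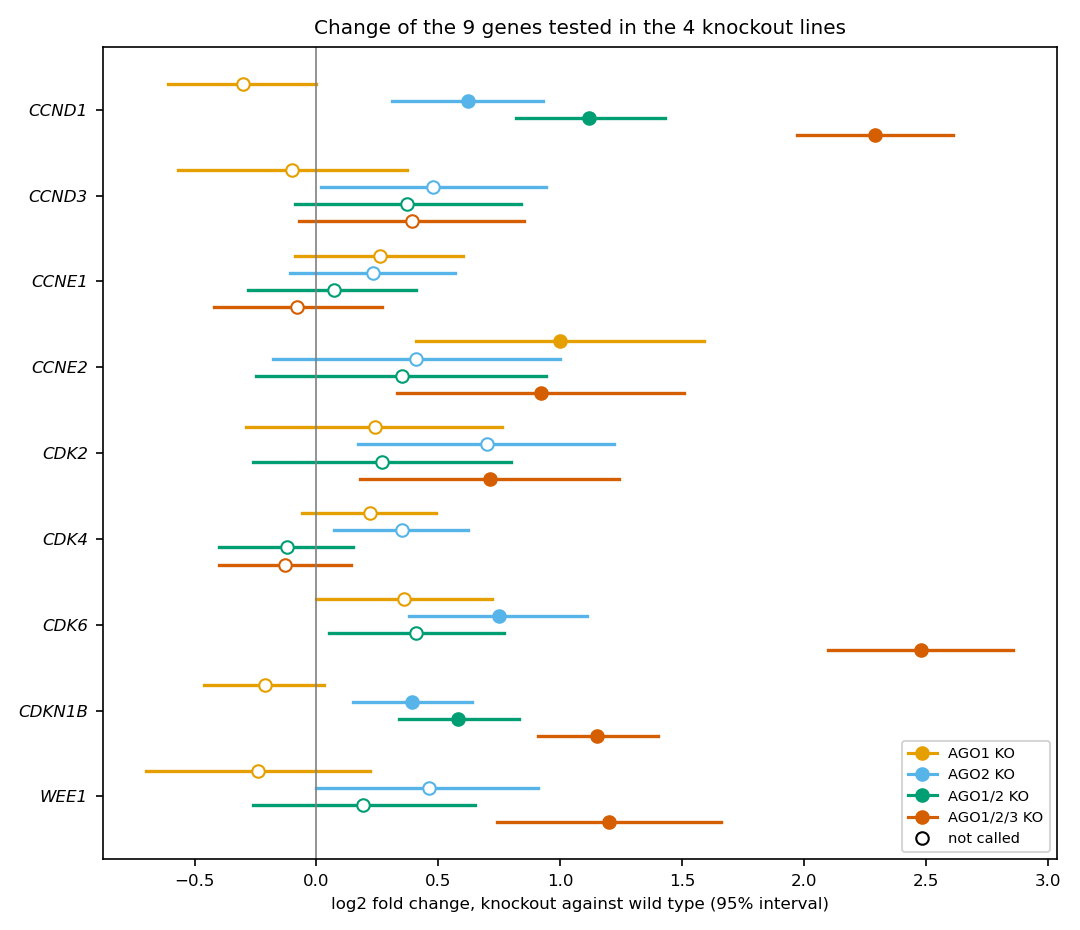
Log2 fold change of the 9 genes tested in the 4 knockout lines against WT, with 95% intervals from edgeR, filled where called at an adjusted p of at most 0.05. *CDK6* (2.48) and *CCND1* (2.29) had the largest changes, both in *AGO1/2/3* knockout cells, while the intervals of *CCNE1* include 0 in all lines.

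Counted by line, 3 of the 9 genes (*CDK6*, *CCND1* and *CDKN1B*) were called higher in *AGO2* knockout cells, where 8.55% of all genes were called higher and 19.3% in either direction. The count was 2 (*CCND1* and *CDKN1B*) in *AGO1/2* knockout cells, against 8.37% called higher and 16.7% in either direction. Between *AGO1/2/3* and *AGO1/2* knockout cells 4 of the 9 genes (*CDK6*, *CCND1*, *WEE1* and *CDKN1B*) were called, all higher, against 11.9% called higher and 22% in either direction. The median log2 fold change over the 9 genes was 0.22 after loss of AGO1, 0.46 after loss of AGO2 and 0.35 after loss of both, with medians over all genes tested of -0.01, -0.02 and 0.01. Without WT replicate 2 the medians of the 9 genes were -0.07, 0.24 and -0.03, so that only the second kept its direction. Between knockout lines, *CCND1*, *CDKN1B* and *WEE1* were called higher in *AGO2* than in *AGO1* knockout cells (0.93, 0.61 and 0.70 on the log2 scale), 3 of the 9 genes where 18.4% of all genes were called. Adding AGO2 loss to AGO1 loss gave 2 called genes, *CCND1* (1.43) and *CDKN1B* (0.79), against 19.5% of all genes. Adding AGO1 loss to AGO2 loss also gave 2, *CCND1* higher by 0.50 and *CDK4* lower, against 23.9%. In *AGO1/2/3* knockout cells *CDK6*, *CCND1*, *CDKN1B* and *WEE1* were called higher, and *CDK4* lower, than in *AGO1* knockout cells (40.7% of all genes) and than in *AGO2* knockout cells (40.3% of all genes). These counts describe 9 chosen genes and were not tested as a set.

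Levels of different genes were ordered per kilobase of annotated exon, whereas the ratios above used counts without a length. On that scale the WT order was *CCND1* (109.8 CPM per kb), *CDK4* (32.3), *CDK2* (15.4), *CDK6* (13.2), *WEE1* (8.49), *CCNE1* (7.38), *CDKN1B* (3.98), *CCNE2* (3.48), *CCND3* (2.02) and *CCND2* (0.013). With 73.5 CPM per kb *CDK6* stood second in *AGO1/2/3* knockout cells, after *CCND1* with 536 CPM per kb. With the length of the longest transcript, *WEE1* (15.1 CPM per kb) lay above *CDK6* (13.8) in WT, and *CCND3* (4.85) above *CCNE2* (4.59).

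The low WT replicate was low in other cell cycle genes as well. The summed level of 15 genes of S phase and proliferation was 3112, 1311 and 3013 CPM in the WT replicates and 3925, 3188 and 1822 CPM in the *AGO1* knockout replicates. It was 3888 to 4548 CPM in *AGO2* knockout, 2396 to 4088 CPM in *AGO1/2* knockout and 4069 to 4200.1 CPM in *AGO1/2/3* knockout cells. The sums of *AGO2* and *AGO1/2/3* knockout cells lay above all WT sums. These sums are not a measure of growth. From live cell counts, the paper reports slower growth than WT in every line lacking AGO2, slowest where AGO3 was lost too. It describes growth of the *AGO1* knockout line as similar to WT. For the slowest line it raises the possibility of wider expression changes that act indirectly. How growth relates to the RNA levels given here was not tested. All 9 genes tested had their lowest WT value in WT replicate 2, by the widest margins for *CCNE2*, *CDK2*, *WEE1* and *CCND3*. All but *CCND1* and *CDKN1B* had their lowest *AGO1* knockout value in replicate 3, the low one of that line. In bulk RNA a different share of cells in a phase and a different amount of RNA per cell cannot be told apart, and the part of these sums in the changes was not tested. *CCND1* and *CDK6* were as clearly higher in *AGO1/2/3* knockout cells without WT replicate 2, at 2.21 and 2.30 on the log2 scale.

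Genes that act with the set were examined as 8 lists of 68 genes, of which 67 were tested. Of these, 25 were called higher and 7 lower in *AGO1/2/3* knockout cells, beside 20.3% and 19.8% of all genes tested. The counts of each list in that line, given below, stand beside the same shares, and no list was tested as a set. Loss of AGO1 alone gave 3 called in each direction, beside 8.68% of all genes called, loss of AGO2 alone 11 higher and 6 lower, beside 19.3%, and loss of both 3 higher and 5 lower, beside 16.7%.

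The kinase inhibitors other than *CDKN1B* moved together in *AGO1/2/3* knockout cells, where all 6 were called higher, beside 20.3% of all genes tested. Their median log2 fold change was 1.16. *CDKN2C* and *CDKN2B*, whose products bind CDK4 and CDK6, rose from means of 4.39 and 17.4 CPM in WT to 18.7 and 51.2 CPM, by 2.09 (SE 0.41) and 1.56 (SE 0.40) on the log2 scale (adjusted p = 0.000784 and 0.00529 by edgeR). In *AGO2* knockout cells *CDKN2B* was lower, at 4.27 CPM (log2 fold change -2.02, SE 0.42, adjusted p = 0.00616 by edgeR). The WT mean of *CDKN2B* rests on replicate 2 (11.1, 32.9 and 8.29 CPM), and without it the changes were -1.20 in *AGO2* and 2.38 in *AGO1/2/3* knockout cells, both called. Of the 6 inhibitors 2, *CDKN1A* and *CDKN2B*, were called lower in *AGO2* knockout cells and the other 4 were not called. In that line 19.3% of all genes tested were called in either direction.

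Of 13 genes of the retinoblastoma and E2F families 5 were called higher and 2 lower in *AGO1/2/3* knockout cells (median 0.24), beside 20.3% and 19.8% of all genes tested. *RB1*, which encodes the target of the cyclin D kinases, rose from 77.5 to 201 CPM (1.37, SE 0.13, adjusted p = 8.96e-07 by edgeR) and was also called in *AGO1/2* knockout cells at 122 CPM (0.65, SE 0.13, adjusted p = 0.00267). *E2F7*, an atypical repressor of the family, rose from 33.6 to 100.2 CPM (1.58, SE 0.17, adjusted p = 3.57e-06 by edgeR). *E2F5*, on 8q like *CCNE2*, fell from 15.0 to 6.59 CPM (-1.19, SE 0.15, adjusted p = 1.07e-05), and it was already lower in *AGO1/2* knockout cells at 7.17 CPM (-1.07). *E2F4* fell from 51.7 to 32.9 CPM (-0.65, SE 0.12, adjusted p = 0.000534).

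Among 7 genes that set the phosphorylation of CDKs, *CDC25A* and *CDC25B*, phosphatases that remove the mark WEE1 adds, were called higher in *AGO1/2/3* knockout cells (list median 0.58). *CDC25A* rose from 22 to 69.9 CPM (1.67, SE 0.34, adjusted p = 0.00102 by edgeR) and *CDC25B* from 196 to 307 CPM (0.65, SE 0.12, adjusted p = 0.000526). In *AGO1* knockout cells *CDC25B* was instead lower, at 136 CPM (-0.53, SE 0.12, adjusted p = 0.0132 by edgeR), a call lost without *AGO1* knockout replicate 1 or 2 (0.0503 and 0.0786). *CDK7*, the catalytic subunit of the CDK-activating kinase, fell from 43.0 to 23.8 CPM (-0.85, SE 0.12, adjusted p = 3.95e-05 by edgeR). *CDC25C*, the remaining phosphatase of the family, was not called (0.58).

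Of 9 ubiquitin ligase genes, 2 were called higher and 1 lower, beside 20.3% and 19.8% of all genes tested, with a median of 0.15. *SKP2*, whose product marks the *CDKN1B* protein for degradation, was at 67.6 CPM against 36.2 in WT (0.90, SE 0.30, adjusted p = 0.0242 by edgeR), and without WT replicate 2 the change was 0.54 and not called (adjusted p = 0.0689). *FBXW7*, which acts on cyclin E, was at 57.2 against 41.2 CPM (0.47, SE 0.10, adjusted p = 0.0012), and *FBXO31*, which acts on cyclin D1, at 24.8 against 41.6 CPM (-0.75, SE 0.13, adjusted p = 0.000213). *FBXO4* (-0.26) and *AMBRA1* (-0.11), of the same list, were not called.

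Of the 5 cyclin and kinase genes of S, G2 and M phase, *CCNA2* (0.97, SE 0.37, adjusted p = 0.0465 by edgeR) and *CCNB2* (0.78, SE 0.28, adjusted p = 0.0373) were called higher, and the list median was 0.76. Of 15 genes of S phase and proliferation 4 were called higher, beside 20.3% of all genes tested, with a median of 0.57. *GINS1* (1.30, SE 0.34, adjusted p = 0.00648 by edgeR) and *TOP2A* (1.07, SE 0.29, adjusted p = 0.00783) had the largest changes. Without WT replicate 2 neither cyclin was called, with *CCNA2* at 0.66 (adjusted p = 0.178) and *CCNB2* at 0.53 (adjusted p = 0.165). Both calls were also lost without any 1 of the *AGO1/2/3* knockout replicates. The edgeR adjusted p was then 0.0767 to 0.147 for *CCNA2* and 0.0589 to 0.125 for *CCNB2*. Leaving out any 1 of the *AGO2* knockout replicates lost both calls as well.

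Of 7 regulators that respond to mitogens or Wnt, 1 was called higher and 3 lower, beside 20.3% and 19.8% of all genes tested, with a median of -0.23. *MYC*, a transcription factor that promotes entry into the cell cycle and lies on 8q, fell from a mean of 279.7 CPM in WT to 155 CPM in *AGO1/2* knockout (-0.85, SE 0.14, adjusted p = 0.000607 by edgeR) and 58.5 CPM in *AGO1/2/3* knockout cells (-2.26, SE 0.14, adjusted p = 1.63e-08). The same lines in which *MYC* fell were those in which *CCND1* rose most. In *AGO2* knockout cells, however, *CCND1* was called higher (0.62, adjusted p = 0.0106 by edgeR) while *MYC* was not called (0.19, adjusted p = 0.333). A relation between *MYC* and *CCND1* was not tested. *FOS* fell from a mean of 158 CPM to 49.9, 7.67 and 6.51 CPM in the *AGO1/2/3* knockout replicates (-2.88, SE 0.66, adjusted p = 0.00262 by edgeR, and -4.50 without replicate 1, the highest of them), and was also lower in *AGO1* knockout cells at 28.9 CPM (-2.45, SE 0.65, adjusted p = 0.0283, lost without any 1 of the *AGO1* knockout replicates), where *CCND1* was not called. By contrast *FOSL1*, of the same family, rose from 109.7 to 274 CPM (1.32, SE 0.27, adjusted p = 0.000966).

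Among 5 host genes of the miRNAs searched, 3 were called higher in *AGO1/2/3* knockout cells, beside 20.3% of all genes tested, with a list median of 0.59. *MIR222HG*, the host of miR-221 and miR-222, was at 71.1 CPM against 43.9 CPM in WT (0.70, SE 0.16, adjusted p = 0.00313 by edgeR), in the line in which *CDKN1B* was highest. *SMC4*, whose introns hold members of the miR-15/16 family, was at 435 against 207 CPM (1.07, SE 0.25, adjusted p = 0.00301). Host RNA is not a measure of mature miRNA, which was not analysed here.

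**Figure D5:**
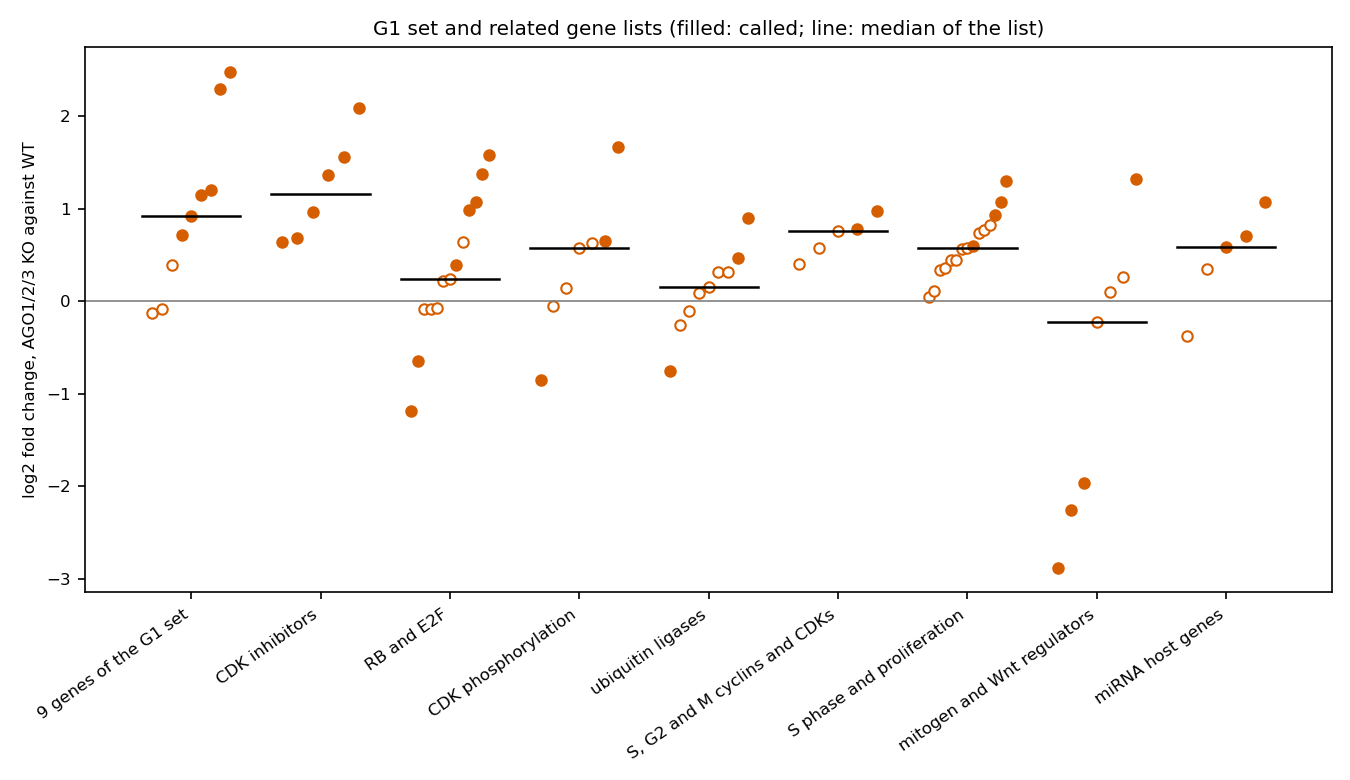
Log2 fold change in *AGO1/2/3* knockout cells against WT for the 9 genes tested and for the 67 genes of the 8 related lists, with filled points where called and a line at the median of each list. All 6 other kinase inhibitors were called higher, and *FOS* (-2.88) and *MYC* (-2.26) were the lowest points.

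The genes whose log2 CPM over the 15 samples was most like that of *CCND1*, out of 16083 genes whose mean level reached 1 CPM, were *CPPED1* (Pearson r = 0.989), *PANK3* (r = 0.985) and *CRIM1* (r = 0.985). For *CDK6* they were *SLC35B4* (r = 0.989), *HOXA10* (r = 0.980) and *B3GLCT* (r = 0.979), with the first and second on chromosome 7 as *CDK6* is. For *CDKN1B* they were *VPS4B* (r = 0.977), *PBX3* (r = 0.974) and *AP1S2* (r = 0.973). Within the set *CCND1* and *CDKN1B* had r = 0.945, *CCND1* and *CDK6* 0.866, and *CCND1* and *CDK4* -0.453. These correlations are descriptions over samples that share 5 lines. *CRIM1*, for example, had means of 57.1 CPM in WT, 125 CPM in *AGO1/2* knockout and 275 CPM in *AGO1/2/3* knockout cells, an order like that of *CCND1*, while *HOXA10* was at 13.0 CPM in WT, 14.6 CPM in *AGO1/2* knockout and 51.7 CPM in *AGO1/2/3* knockout cells.

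Read beside the seed matches, the 2 genes that rose most in *AGO1/2/3* knockout cells, *CDK6* and *CCND1*, had 8 and 2 matches to the 6 families. *WEE1* and *CDKN1B*, with 4 and 3 matches, rose by less, and *CCNE1*, with 2, was not called. *CDK4* had its 1 match in a part of the 3′-UTR that the representative transcript lacks. With so few genes no relation between matches and change was tested.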

How the data were processed

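RNA was measured by RNAseq in 15 samples of 5 HCT116 lines. The authors aligned reads to hg38 with STAR and quantified them with Salmon (versions 2.5.3a and 0.11.0 in the submitters' processing notes, whereas the paper's methods name others), and deposited an estimated count (expected count) per gene and sample, without normalization for depth. Here the estimated counts were rounded, filtered with filterByExpr, scaled by TMM and fitted with edgeR 4.0.16 in R 4.3.3, with a mean per line. Calls needed an adjusted p of at most 0.05. At 27709971 to 45271146 counts per sample, 3 counts or fewer were treated as at the floor. Ratios and figures used Python 3.11.15, numpy 2.4.6, pandas 2.3.3, scipy 1.17.1 and matplotlib 3.10.9. The prior count for log2 CPM was 2. GENCODE v44 supplied symbols, lengths and positions for 57167 of 57875 genes. The fit was tested on simulated data.

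The members and lists were chosen with earlier results of these data known. Named genes were all 10 members, *AGO1* to *AGO4*, for each list at most the 2 largest increases and 2 largest decreases called in *AGO1/2/3* knockout cells without overlap, and the 3 genes most like each of the 3 members with the largest F. The alternatives were DESeq2 size factors, total counts only, the DESeq2 1.42.0 Wald test, 2 other filters, only the 6 samples compared, a replicate block, no *AGO2* knockout samples, and each sample left out. The 8 eCLIP samples were not analysed here.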

Additional observations from a re-analysis of the deposited data

Results flagged for a closer look

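The effect of losing AGO2 differed with the presence of AGO1 for 2 of the 9 genes tested, by the interaction term of the edgeR fit. Among all genes tested 19.7% were called for that term. For *CCND1* the effect was larger by 0.81 on the log2 scale where AGO1 was absent (SE 0.20, adjusted p = 0.0122). *CCND1* was at 1133 to 1145 CPM in *AGO1/2* knockout cells against 394 to 442 CPM in *AGO1* knockout cells, and at 652 to 1049.8 CPM in *AGO2* knockout cells against 486 to 549.8 CPM in WT. For *CDK4* the difference was -0.68 (SE 0.18, adjusted p = 0.0162): its level was higher in *AGO2* knockout cells than in WT (119.6 to 133 against 89.1 to 112 CPM, not called) and lower in *AGO1/2* than in *AGO1* knockout cells (76.9 to 99.9 against 94.9 to 129 CPM, not called). The *CDK4* call was lost without *AGO1/2* knockout replicate 2 (adjusted p = 0.0550).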

How the results depend on the processing

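Of 18 called changes of the genes, interactions included, 11 kept their call under every alternative run and 7 lost it under at least 1. Of 36 uncalled changes, 9 gained a call under at least 1, among them *CCNE2* in *AGO1/2/3* against *AGO1/2* knockout cells (adjusted p = 0.00484 with the 6 samples alone, 0.0059 without WT replicate 2). *CCND1*, *CDK6*, *CDKN1B* and *WEE1* kept theirs in *AGO1/2/3* knockout cells, both against WT and against *AGO1/2* knockout cells. The number of genes called in *AGO1* knockout cells was 0 instead of 1 with the 6 samples alone, with the replicate block and without the *AGO2* knockout samples, and 0 to 1 with a sample left out (0 without *AGO1* knockout replicate 1 or 2, *AGO2* knockout replicate 3 or *AGO1/2/3* knockout replicate 2). In *AGO2* knockout cells it was 5 with DESeq2's Wald test, 6 with no filter, 0 with the 6 samples alone (edgeR adjusted p = 0.0543 for *CDK6*, 0.0673 for *CCND1* and 0.0780 for *CDKN1B*) and 1 to 5 with a sample left out, instead of 3 (1 without *AGO2* knockout replicate 2, 5 without *AGO1* knockout replicate 3). For the interaction it was 4 with DESeq2 and with no filter and 1 to 5 with a sample left out, instead of 2 (1 without *AGO1/2* knockout replicate 2, 4 without WT replicate 3, 5 without *AGO1* knockout replicate 3). In *AGO1/2/3* knockout cells it was 4 to 6 with a sample left out. *CDK2* lost its call there under 12 of 23 alternatives (adjusted p up to 0.108). List genes called in *AGO1* knockout cells numbered 10 with no filter, 3 with the 6 samples alone and 2 to 9 with a sample left out, instead of 6, and in *AGO2* knockout cells 37, 7 and 5 to 27, instead of 17 (6 without WT replicate 2). Total counts brought the median of all genes to between -0.15 and -0.08 in the 4 comparisons with WT and the 8q median in *AGO1* knockout cells to -0.07. Signs of uncalled changes reversed with total counts for *CCNE1* in *AGO1/2* knockout cells (-0.02), *CCND3* between *AGO1/2/3* and *AGO1/2* knockout cells (-0.04, and -0.02 with at least 10 counts and 0.00 with the 6 samples) and the interactions of *CCND3* (0.11) and *WEE1* (0.10). Same-numbered replicates did not deviate together (mean r = -0.0114 over 30 pairs), so the numbers do not pair the samples.

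With a sample left out, uncalled changes that reversed ranged as follows on the log2 scale. In *AGO1* knockout cells *CCND3* ranged from -0.34 to 0.06 and *CDK2* from -0.07 to 0.44. In *AGO1/2* knockout cells *CCNE1* ranged from -0.05 to 0.19, *CCNE2* from -0.03 to 0.57, *CDK2* from -0.05 to 0.46 and *WEE1* from -0.05 to 0.40. In *AGO1/2/3* knockout cells *CCNE1* ranged from -0.21 to 0.03, and against *AGO1/2* knockout cells *CCND3* from -0.07 to 0.12 and *CDK4* from -0.13 to 0.04. The interactions ranged from -0.15 to 0.25 for *CCND3* and -0.24 to 0.21 for *WEE1*. The *CCNE2* to *CCNE1* ratio in *AGO2* knockout cells ranged from -0.06 to 0.60, and the *CCND3* to *CCND1* ratio from -0.02 to 0.40 in *AGO1* and -0.33 to 0.09 in *AGO2* knockout cells. The cause was not tested.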
